A study of Mus musculus with 100 samples.

Results

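The SOX and RUNX chondro-osteogenic transcription factors were followed through knee joints of 3 mouse strains before and after an anterior cruciate ligament (ACL) injury. The members were the rows of the deposited count table that carry the names Sox9, Sox5, Sox6, Sox4, Sox11, Runx1, Runx2, Runx3 and Cbfb. All 9 of 9 were found among 17310 genes. The strains differ, per the labels, in how readily they develop post-traumatic osteoarthritis: STR/ort mice are highly susceptible, C57BL/6 mice moderately, and MRL/MpJ mice not. The labels give the mice an age of 10 weeks, which the study's methods give as the age at injury, and the right knee of each injured mouse was loaded a single time in compression at 10 to 12 N until the ligament tore. The uninjured joint is the contralateral knee of an injured mouse, so it shares the systemic effects of the injury, and 0-day joints come from mice before injury. In all, 100 poly(A) RNA-seq libraries of whole joints fell into 21 groups of 4 or 5 libraries. For each strain these were 0-day joints, and an injured and a contralateral group at each of 3 later times, called 1-day, 1-week and 2-weeks. Joints kept small traces of soft tissue, and the labels name the animal only at 2-weeks, so p-values at the other times measure the spread between the samples, which may be technical.

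SOX proteins bind DNA through a high-mobility-group box. Sox9 sets up the chondrocyte lineage and turns on cartilage matrix genes, and Sox5 and Sox6, which lack an activation domain of their own, bind beside it and raise its output. Sox6 also represses slow-fibre genes in skeletal muscle. Sox4 and Sox11 belong to the SoxC group, which is active in skeletal and joint progenitors. Runx1, Runx2 and Runx3 bind DNA through a Runt domain, and Cbfb is the partner subunit that does not touch DNA and strengthens their binding. Runx2 is the master factor of osteoblasts and hypertrophic chondrocytes, Runx1 acts in blood stem cells and in skeletal progenitors, and Runx3 acts in T cells and in chondrocyte maturation.

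The Runx genes carry a paired RUNX core near a start, which is shown because all 3 share it and the choice of members did not use it. The RefSeq promoter table for GRCm38.p6 gave 15 windows, from 250 bases before to 50 after a start, for 8 members, and Sox9 was not among them. The core SOX letters ACAAT (reverse complement ATTGT) stood in 5 of the 15 windows and in 31.0% of 32851 mouse windows. The core RUNX letters TGTGGT (reverse complement ACCACA) also stood in 5 of the 15 and in 16.8% of all windows. The longest stretch shared by a window of each Runx gene, 18 bases, holds the 14-base pair ACCACAGAACCACA (reverse complement TGTGGTTCTGTGGT), which has the RUNX core at both ends and was noticed after the sequences were read. It stood in 4 of the 32851 windows (0.0122%): those of the 3 Runx genes and that of Gm16225, which covers the same site as the Runx3 window. Below are 30 bases around each of these and around the SOX core of Sox5, with the core letters in capitals, 5′ to 3′ on the gene's strand. The matches are descriptions of letters and were not tested for binding.
Runx1: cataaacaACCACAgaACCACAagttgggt
Runx2: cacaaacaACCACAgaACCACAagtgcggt
Runx3: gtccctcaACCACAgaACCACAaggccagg
Sox5: gactgaagagacACAATggttgtgaatact
The Runx1 stretch is chr16:92826025-92826054 on the minus strand and begins its first core 28 bases after the distal start. The Runx2 stretch is chr17:44814583-44814612 on the minus strand, with the pair 23 bases after the start. The Runx3 stretch is chr4:135120503-135120532 on the plus strand, where the pair begins at position -134 relative to the start. The Sox5 stretch is chr6:143947243-143947272 on the minus strand, with the core at position -154.

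In the GRCm38 annotation (GENCODE vM21), Sox9 lies at chr11:112782224-112787760, Sox5 at chr6:143828425-144781977, Sox6 at chr7:115470872-116038796, Sox4 at chr13:28948919-28953713 and Sox11 at chr12:27334264-27342574. Runx1 lies at chr16:92601466-92826149, Runx2 at chr17:44495987-44814797, Runx3 at chr4:135120652-135177990 and Cbfb at chr8:105170674-105217989. Exons of 4 members overlap a gene on the opposite strand. The overlap is 2616 of the 4795 exon bases of Sox4 with Gm26735 and 1330 bases of Sox5 with Sox5os1, and it is 519 bases of Runx2 with Runx2os1 and 106 bases of Runx1 with Gm26626. None of these 4 partners is in the count table. The strand setting of the counting was not given in the sources used here, so reads of the members and of these partners cannot be told apart.

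Library totals ran from 6182016 to 20986027 assigned reads with a median of 10582591. All 6 chondrocyte markers and all 5 osteoblast markers had reads in every group, as did all 6 fibroblast, 7 fast muscle, 7 T cell, 6 B cell, 6 myeloid, 6 marrow neutrophil, 6 erythroid and 6 Schwann cell markers, so RNA of muscle, marrow and nerve was present beside that of cartilage and bone. In such bulk samples, fewer cells of a type and less RNA per cell cannot be told apart. The 2-weeks libraries formed a second experimental batch of 30, against 70 for the other times, so time and batch cannot be told apart there and no test was made between times. The library MRL/MpJ 2-weeks injured replicate 4 lay at the end of its group in several members. Of these only its Runx2 value passed the outlier limit given under the flagged results. This library had the lowest Runx1 (50.9), Runx2 (43.8) and Runx3 (12.6) normalised read counts, as TMM-normalised CPM, that is, reads of the gene per 1e+06 assigned reads, of its group.

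Read per kilobase of exon, the members spanned a wide range of levels over the 100 libraries. The median was 41.5 CPM per kb for Cbfb, 12.3 for Sox6, 9.70 for Runx1, 9.22 for Runx2, 8.06 for Sox4, 5.54 for Runx3, 4.84 for Sox9, 1.36 for Sox5 and 0.271 for Sox11, with exons of the GENCODE basic annotation. With all annotated exons, which are longer for Sox5, Sox6, Runx1, Runx2, Runx3 and Cbfb, the order between the highest, Cbfb (34.8), and the lowest pair, Sox5 and Sox11, became Sox4 (8.06), Sox6 (7.77), Runx2 (7.40), Runx1 (6.01), Sox9 (4.84) and Runx3 (4.62). The order of these 6 members therefore depends on the exons taken, and the RefSeq exon lengths behind the counts were not used. Sox11 had 8 to 94 reads per library, which limits the precision of its values. The ratio of the highest to the lowest of the 21 group means was 6.37 for Sox9, 5.52 for Sox11, 4.33 for Sox6, 4.00 for Sox5, 2.77 for Runx1 and 2.74 for Sox4. It was 1.59 for Runx2, 1.56 for Cbfb and 1.48 for Runx3. For Sox6, Sox4, Runx2, Cbfb and Runx3 the highest and lowest groups lie in different experimental batches. Their ratios therefore include any batch difference and are not on a par with those of the other members. When the groups were put in order of their mean, neighbouring groups overlapped in all 20 of 20 steps for 7 members and in 19 of 20 for Sox11 and Cbfb. The steps that did not overlap led to the STR/ort 1-week injured group, the highest, for Sox11 and to the STR/ort 0-day group for Cbfb. STR/ort 1-week injured joints held the highest mean of Sox9, Sox4, Sox11 and Runx1 and the lowest of Sox6.

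**Figure D1:**
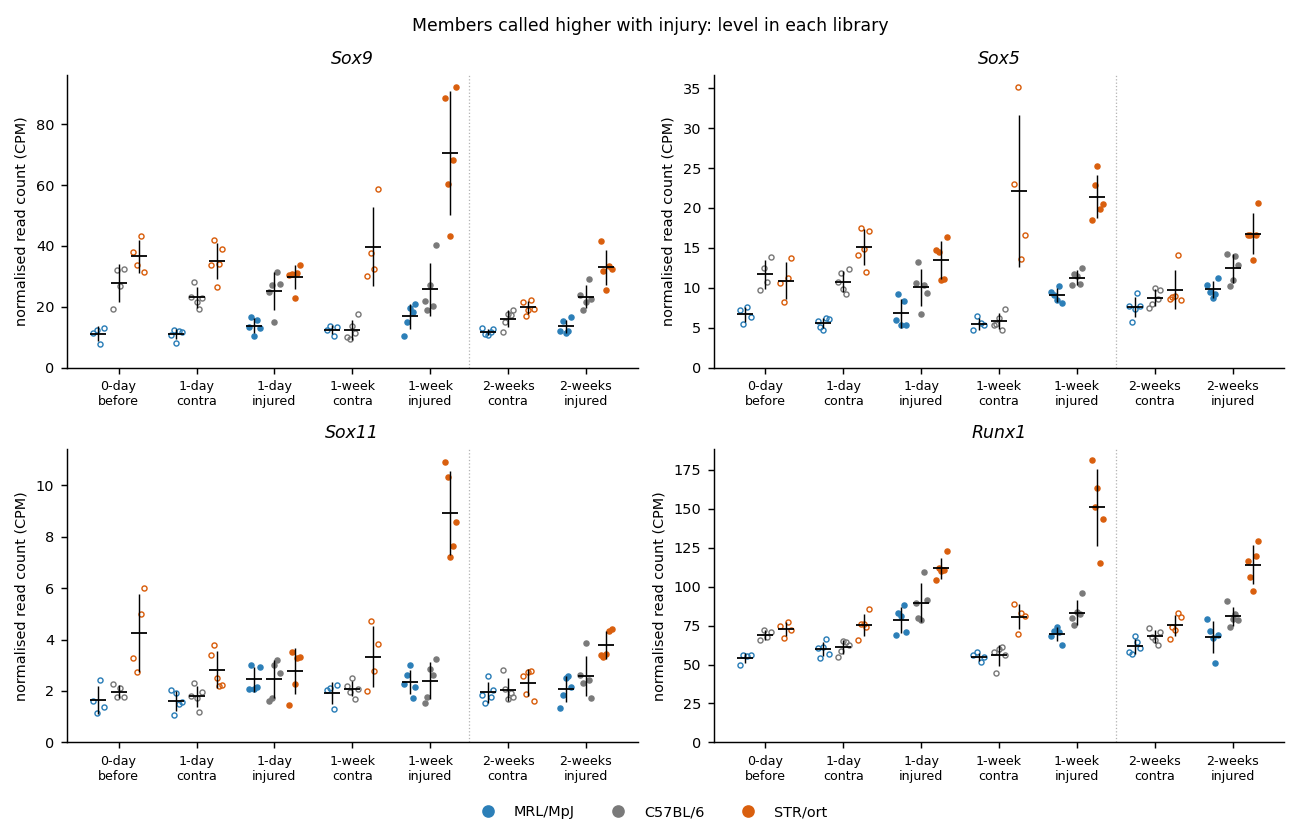
Normalised read count (CPM, linear axis from 0) of Sox9, Sox5, Sox11 and Runx1 in each of 100 libraries by time and joint, where contra marks the contralateral joint. Circles are libraries (filled for injured joints), black bars are group means ± SD, colours are strains and the dotted line separates the 2-weeks batch. STR/ort 1-week injured joints stand highest for Sox9 (mean 70.6), Sox11 (8.93) and Runx1 (151), while Sox5 is as high in their contralateral joints (22.1).

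The comparison of injured with contralateral joints asks how the joint responded to the ligament rupture. A member was called at an adjusted p under 0.05 and a fold over 1.5, by edgeR's quasi-likelihood test with Benjamini-Hochberg adjustment over all 17310 genes. Sox9, Sox5, Sox11 and Runx1 were the members called, each of them higher in injured joints, and no member was called lower. At 1-day post-injury, 0 of 9 members were called in C57BL/6 joints, against 5.60% of all genes, 0 of 9 in MRL/MpJ joints (2.02%) and 0 of 9 in STR/ort joints (4.31%). At an unadjusted p under 0.05 these counts were 5, 2 and 3, and DESeq2 called 0 in each strain. At 1-week, 3 of 9 were called in C57BL/6 joints (all genes 5.82%), 1 of 9 in MRL/MpJ joints (3.13%) and 3 of 9 in STR/ort joints (9.21%). At 2-weeks, 0 of 9 were called in C57BL/6 (2.95%) and MRL/MpJ (1.16%) joints, with 3 and 2 at an unadjusted p under 0.05 and 0 by DESeq2 in both. In STR/ort joints 4 of 9 were called at 2-weeks, against 4.66% of all genes. The median log2 fold change of the 9 members lay between -0.12 and 0.33 over these 9 comparisons, and that of all genes between -0.03 and 0.01.

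**Figure D2:**
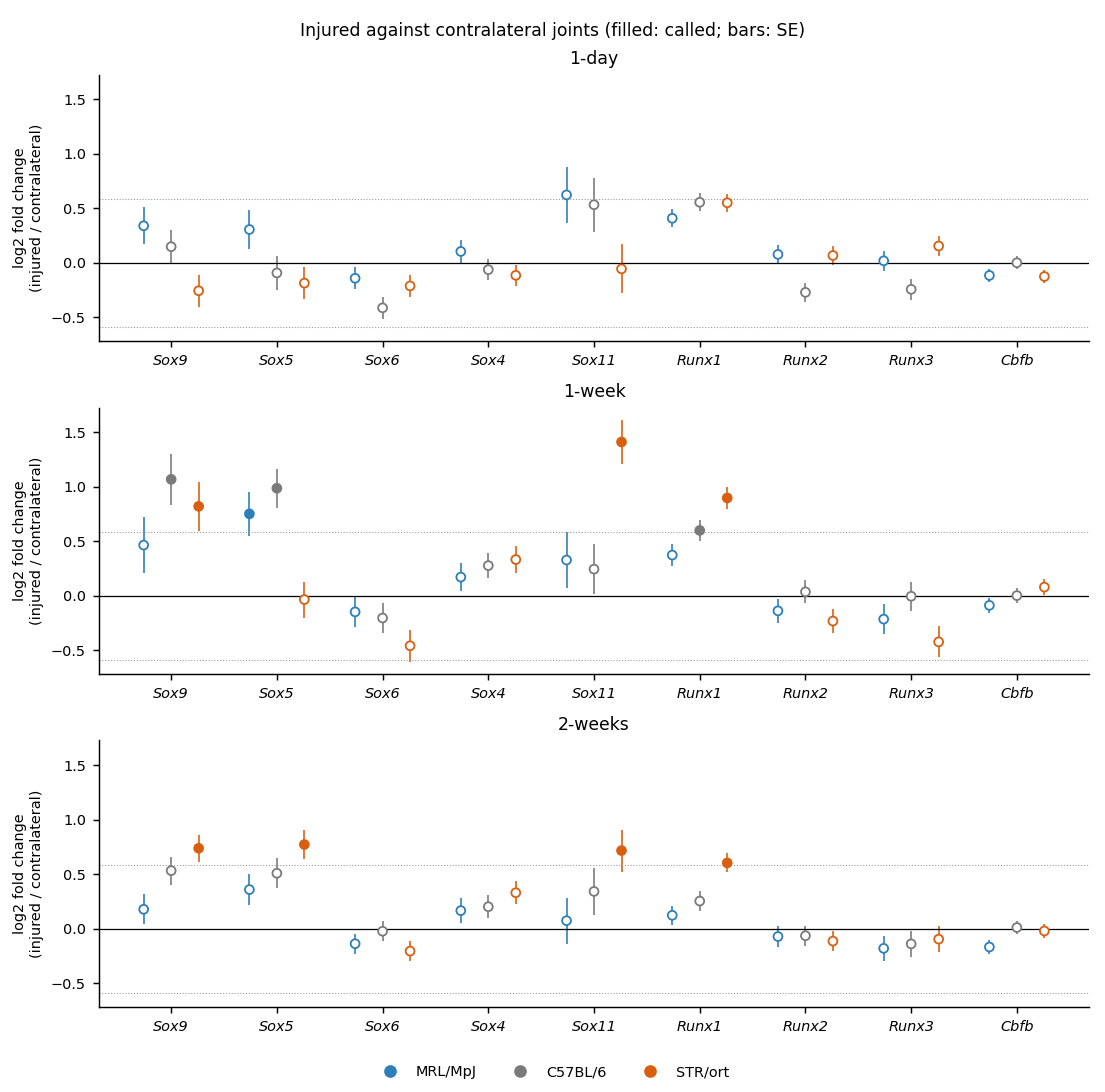
Log2 fold change of injured over contralateral joints (y axis) for the 9 members (x axis) in each strain, with 1 panel for each time post-injury. Bars are standard errors, filled circles mark called members and dotted lines mark 1.5-fold. No circle is filled at 1-day, the filled ones at 1-week and 2-weeks are Sox9, Sox5, Sox11 and Runx1, and all of them lie above 0.

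Sox9 rose in injured joints of C57BL/6 mice at 1-week and of STR/ort mice at 1-week and 2-weeks. In C57BL/6 contralateral joints at 1-week its normalised read counts were 10.0, 9.59, 13.7, 11.4 and 17.5 CPM, and in injured joints 22.0, 18.9, 27.3, 20.2 and 40.3 CPM. Every injured joint was above every contralateral joint. The log2 fold change was 1.07 ± 0.23 (SE) with an adjusted p of 0.00175. In STR/ort joints at 1-week the contralateral values were 30.3, 37.7, 32.6 and 58.7 CPM and the injured values 88.6, 60.3, 43.4, 68.4 and 92.1 CPM. These groups overlapped through contralateral replicate 4 and injured replicate 3. This was a log2 fold change of 0.82 ± 0.22, adjusted p = 0.00806, and with 2 RUVg factors, an alternative that removes variation seen in housekeeping genes, it was 0.64 with an adjusted p of 0.0861.

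At 2-weeks, Sox9 in STR/ort joints was 21.5, 16.9, 19.1, 22.3 and 19.4 CPM on the contralateral side and 41.5, 31.9, 25.6, 33.4 and 32.3 CPM on the injured side, with no overlap. The log2 fold change was 0.74 ± 0.12, adjusted p = 4.5e-05. C57BL/6 joints at 2-weeks reached 0.53 ± 0.13 with an adjusted p of 0.00655, under the fold limit, and were called at 0.59 without C57BL/6 injured replicate 2 and at 0.59 without contralateral replicate 5. In MRL/MpJ joints Sox9 stayed low, with group means from 11.1 to 16.8 CPM over all 7 groups. Its log2 fold change with injury there was 0.34 at 1-day, 0.46 at 1-week and 0.18 at 2-weeks, with adjusted p of 0.323, 0.444 and 0.978. Without injured replicate 4, the 2-weeks value was 0.24 with an adjusted p of 0.453. At 1-day the Sox9 value was 0.15 ± 0.15 in C57BL/6 (adjusted p = 0.56) and -0.26 ± 0.15 in STR/ort joints (0.312), neither past the test.

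Sox5, the partner of Sox9 in cartilage, rose at 1-week in C57BL/6 and MRL/MpJ joints and at 2-weeks in STR/ort joints. In C57BL/6 joints at 1-week it was 5.31, 5.52, 6.17, 4.70 and 7.37 CPM on the contralateral side and 10.3, 11.8, 11.5, 10.5 and 12.4 CPM on the injured side. All injured joints were above all contralateral ones, and the log2 fold change was 0.99 ± 0.18, adjusted p = 0.000241. In MRL/MpJ joints at 1-week, 4 contralateral joints lay at 4.75, 6.53, 5.54 and 5.30 CPM and 5 injured joints at 9.54, 9.15, 8.48, 10.2 and 8.09 CPM, again without overlap. This was a log2 fold change of 0.75 ± 0.20, adjusted p = 0.0227. The call was lost without injured replicate 4 (adjusted p = 0.0652) and without contralateral replicates 1 (0.0954), 3 (0.0624) or 4 (0.0633), with log2 fold changes of 0.70, 0.69, 0.75 and 0.73.

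In STR/ort joints at 1-week Sox5 was high on both sides. The contralateral joints lay at 23.0, 35.2, 13.6 and 16.7 CPM and the injured ones at 18.5, 22.8, 25.3, 19.8 and 20.5 CPM, so the injured values fell inside the contralateral range. The log2 fold change was -0.04 ± 0.17, adjusted p = 0.911. At 2-weeks the contralateral joints lay at 8.57, 8.84, 8.95, 14.1 and 8.48 CPM and the injured ones at 16.6, 16.6, 13.5, 16.6 and 20.6 CPM, with only injured replicate 3 under contralateral replicate 4. This was a log2 fold change of 0.77 ± 0.13, adjusted p = 7.25e-05. C57BL/6 joints at 2-weeks reached 0.51 ± 0.14 with an adjusted p of 0.0189, under the fold limit, and MRL/MpJ joints 0.36 ± 0.14 (0.368). At 1-day Sox5 was at -0.09 in C57BL/6, 0.30 in MRL/MpJ and -0.19 in STR/ort joints, with adjusted p of 0.747, 0.426 and 0.515.

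Sox6 was not called with injury at any time. Its log2 fold change was at or below -0.02 in all 9 comparisons of injured with contralateral joints. It passed the adjusted p in C57BL/6 joints at 1-day, at -0.41 ± 0.10 (adjusted p = 0.00373), and in STR/ort joints at 1-week, at -0.46 ± 0.15 (adjusted p = 0.0257). Without STR/ort contralateral replicate 1 the second value was -0.60 and passed the fold limit. In both of these comparisons the fast muscle markers were lower in median in the injured joints. Their summed level had a median of 39445 CPM in C57BL/6 contralateral joints and 29669 CPM in injured joints at 1-day, and of 26126 and 16503 CPM in STR/ort contralateral and injured joints at 1-week. At 2-weeks in C57BL/6 joints its median was 54191 CPM on the contralateral and 67269 CPM on the injured side, beside a Sox6 change of -0.02, and in STR/ort joints it was 62806 and 63607 CPM beside -0.21. At 1-day it was 32216 and 17939 CPM in STR/ort joints, beside a Sox6 change of -0.21, and 62838 and 41668 CPM in MRL/MpJ joints, beside -0.14. Other sums also moved in C57BL/6 joints at 1-day. The fibroblast sum was 3415 to 4603 CPM in contralateral and 7095 to 11408 CPM in injured joints. The marrow neutrophil sum was 7996 to 10387 CPM in contralateral and 5602 to 7188 CPM in injured joints. The part of muscle and of these other cells in the Sox6 values was not tested.

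Of the SoxC genes, Sox11 rose with injury in STR/ort joints at 1-week and 2-weeks and Sox4 was not called. At 1-day the Sox11 change was not called in any strain, at 0.62 ± 0.25 in MRL/MpJ (adjusted p = 0.200), 0.53 ± 0.25 in C57BL/6 (0.141) and -0.06 ± 0.22 in STR/ort joints (0.926). Sox11 at 1-week was 2.01, 4.71, 2.79 and 3.83 CPM in the STR/ort contralateral joints and 10.9, 10.3, 7.22, 7.62 and 8.56 CPM in the injured joints. Every injured joint was above every contralateral joint, and also above every library of every other group. The log2 fold change was 1.41 ± 0.20, adjusted p = 7.83e-06. In C57BL/6 and MRL/MpJ joints at 1-week the Sox11 changes were 0.24 ± 0.23 and 0.33 ± 0.25, with adjusted p of 0.609 and 0.656. At 2-weeks, STR/ort contralateral joints had 2.58, 1.88, 2.73, 2.77 and 1.62 CPM and injured joints 3.39, 3.33, 3.45, 4.32 and 4.41 CPM, without overlap. This was a log2 fold change of 0.72 ± 0.19, adjusted p = 0.0106, beside 0.34 ± 0.21 in C57BL/6 (0.357) and 0.07 ± 0.21 in MRL/MpJ joints (1).

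Sox4 rose by less than 1.5-fold. Its log2 fold change in STR/ort joints was 0.33 ± 0.12 at 1-week (adjusted p = 0.0492) and 0.33 ± 0.11 at 2-weeks (adjusted p = 0.0372). Its other 7 injury values lay between -0.12 and 0.28 and did not pass the adjusted p.

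Runx1 was the member that passed the adjusted p in the most comparisons of injured with contralateral joints. At 1-day it was 0.55 ± 0.08 in C57BL/6 joints (adjusted p = 9.9e-06), 0.41 ± 0.08 in MRL/MpJ joints (adjusted p = 0.00219) and 0.55 ± 0.08 in STR/ort joints (adjusted p = 1.78e-05), all under the fold limit. In STR/ort joints at 1-day the contralateral values were 65.9, 76.2, 75.8, 73.9 and 86.0 CPM and the injured values 104, 112, 110, 111 and 123 CPM, without overlap. In C57BL/6 joints the contralateral range of 54.7 to 65.4 CPM also lay wholly below the injured range of 78.3 to 110 CPM, as did that of 54.5 to 66.4 CPM below 68.9 to 88.2 CPM in MRL/MpJ joints. A call was gained at 1-day without C57BL/6 injured replicate 2 (0.59) or 3 (0.62) and without STR/ort contralateral replicate 5 (0.60). The fibroblast sum at 1-day rose without overlap in C57BL/6 joints, as given above. It was 2214 to 2525 CPM in MRL/MpJ contralateral and 2528 to 3544 CPM in injured joints. In STR/ort joints it was 5694 to 10281 and 5810 to 8369 CPM, with overlap. The part of these cells in the Runx1 values was not tested.

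At 1-week Runx1 was 89.2, 69.8, 82.9 and 80.9 CPM in STR/ort contralateral joints and 181, 151, 163, 115 and 144 CPM in injured joints, without overlap. The log2 fold change was 0.90 ± 0.10, adjusted p = 1.7e-07. In C57BL/6 joints at 1-week the change was 0.60 ± 0.10, adjusted p = 4.18e-05, just over the fold limit. It fell under that limit without injured replicate 5 (0.54) and without contralateral replicate 2 (0.53), and it was 0.58 and 0.57 with 1 and 2 RUVg factors. MRL/MpJ joints at 1-week reached 0.37 ± 0.10, adjusted p = 0.0298. At 2-weeks STR/ort joints had 66.5, 73.9, 72.1, 83.1 and 80.6 CPM on the contralateral side and 117, 107, 97.2, 120 and 130 CPM on the injured side. That change was 0.60 ± 0.09, adjusted p = 5.16e-06, and it fell under the fold limit without injured replicates 4 (0.58) or 5 (0.55) and without contralateral replicate 1 (0.56), and with filterByExpr (0.58). C57BL/6 and MRL/MpJ joints at 2-weeks were at 0.25 ± 0.09 (adjusted p = 0.0715) and 0.12 ± 0.09 (0.95). Without MRL/MpJ injured replicate 4, which had the lowest Runx1 of its group, the MRL/MpJ value of Runx1 was 0.24 (0.115), that of Sox4 went from 0.17 to 0.27 (0.243), that of Runx3 from -0.18 to -0.04 (0.889) and that of Runx2 from -0.07 to 0.07 (0.713).

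Runx2, the osteoblast factor, Runx3 and the shared partner Cbfb were called in no comparison of injured with contralateral joints. Runx2 passed the adjusted p only in C57BL/6 joints at 1-day, at -0.27 ± 0.09 (adjusted p = 0.0298). The osteoblast sum there had a median of 2360 CPM in contralateral and 2005 CPM in injured joints, with overlap. Its part in the Runx2 value was not tested. Runx3 passed the adjusted p only in STR/ort joints at 1-week, at -0.42 ± 0.14 (adjusted p = 0.0312), where the contralateral joints lay at 25.1, 21.4, 30.5 and 27.2 CPM and the injured ones at 18.9, 17.1, 17.9, 22.8 and 21.2 CPM. Those groups overlapped through injured replicate 4. Blood cell markers were lower in median in the same injured joints. The 6 marrow neutrophil markers summed to a median of 8047 CPM (7632 to 10062) in contralateral and 5739 CPM (4600.3 to 6606) in injured joints, without overlap, and 3 of 6 were called lower against 9.21% of all genes. The T cell sum went from 32.0 to 23.6 CPM, the B cell sum from 127 to 96.7 CPM, the erythroid sum from 2571 to 1971 CPM and the myeloid sum from 810.4 to 784 CPM, each with overlap and with 0 markers called. Their part in the Runx3 value was not tested. Cbfb lay between -0.17 and 0.08 in all 9 comparisons and never passed the adjusted p. At 1-week in STR/ort joints, where Runx1 was called higher, its partner subunit Cbfb stood at 107 ± 4.5 CPM (SD, n = 4) in contralateral and 114 ± 2.7 CPM (SD, n = 5) in injured joints.

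**Figure D3:**
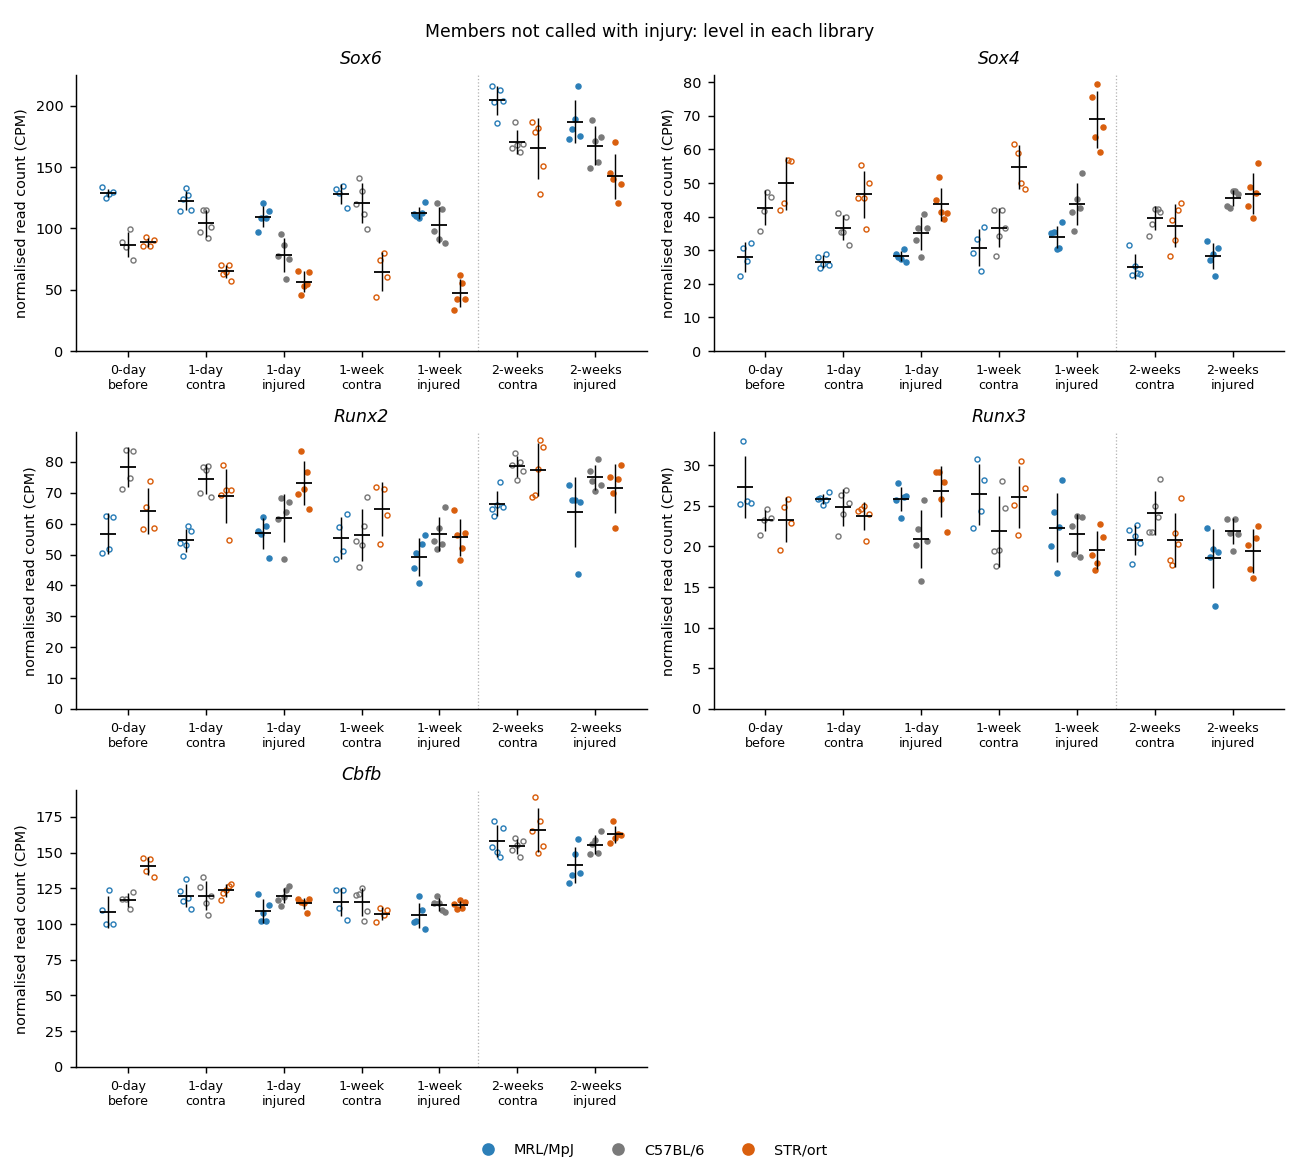
Normalised read count (CPM, linear axis from 0) of Sox6, Sox4, Runx2, Runx3 and Cbfb in each of 100 libraries, drawn as in the plot of Sox9, Sox5, Sox11 and Runx1. Sox6 is lowest in STR/ort 1-week injured joints (mean 47.2) and highest in the 2-weeks batch, Sox4 is highest in STR/ort 1-week injured joints (68.9), and the highest group mean is 1.59 times the lowest for Runx2, 1.48 times for Runx3 and 1.56 times for Cbfb. These ratios are taken across both batches.

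Whether the injury change itself differed between strains was tested as an interaction of strain and injury at each time. Only Sox5 at 1-week between STR/ort and C57BL/6 mice was called, 1 of 9 members against 0.491% of all genes. Its change in STR/ort joints minus that in C57BL/6 joints was -1.02 ± 0.24 on the log2 scale, adjusted p = 0.0482. Without contralateral replicate 2, the joint at 35.2 CPM, it was -0.71 with an adjusted p of 0.0874. The call was also lost without STR/ort contralateral replicate 1, without STR/ort injured replicates 1, 2, 4 or 5, without any of the 5 C57BL/6 injured replicates and without C57BL/6 contralateral replicates 1 to 4. Over these 15 fits the value ran from -1.05 to -0.71. With relative log expression (RLE) size factors the adjusted p was 0.0561, and with only the compared groups in the fit 0.122.

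Sox11 at 1-week was the other member near the threshold. Its STR/ort minus C57BL/6 interaction was 1.17, adjusted p = 0.0754, and DESeq2 called it at 1.19 (adjusted p = 0.0267), as did the fit with 2 RUVg factors at 1.29 (0.0263) and the fit without STR/ort contralateral replicate 2 at 1.36 (0.0381). The Runx1 interaction of STR/ort minus MRL/MpJ at 1-week was 0.52, adjusted p = 0.0711, and 0.61 (0.0129) without STR/ort injured replicate 4. The Sox5 value of that same comparison was -0.79 (adjusted p = 0.147), and -0.97 (0.0274) without STR/ort contralateral replicate 3. For Sox9 the STR/ort minus C57BL/6 interaction at 1-week was -0.25, adjusted p = 0.81.

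In the other 8 interactions, 0 of 9 members were called by edgeR and 0 by DESeq2. At 1-day the share of all genes called was 0.318% for C57BL/6 minus MRL/MpJ, 2.66% for STR/ort minus C57BL/6 and 0.162% for STR/ort minus MRL/MpJ, with 1, 2 and 2 members at an unadjusted p under 0.05. At 1-week it was 0% for C57BL/6 minus MRL/MpJ, with 0 members at an unadjusted p under 0.05, and 0.884% for STR/ort minus MRL/MpJ, with 3. At 2-weeks it was 0%, 0.0462% and 0.451% in the same order as at 1-day, with 0, 1 and 4 members. Apart from the Sox5 value of STR/ort minus C57BL/6 at 1-week, which was lost in the fits named above, no injury change of a member was shown to differ between strains beyond the calls given above under single alternatives.

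The strains were compared before injury to ask which members differed in healthy joints. Sox9, Sox5 and Sox4 were lower in MRL/MpJ joints than in both other strains, and Sox11 was higher in STR/ort joints than in both others. Between C57BL/6 and MRL/MpJ joints 3 of 9 members were called, against 15.9% of all genes, between STR/ort and C57BL/6 joints 1 of 9 (13.8%), and between STR/ort and MRL/MpJ joints 4 of 9 (14.8%). All 8 calls, of Sox9, Sox5, Sox4 and Sox11, were higher in the more susceptible strain. Of all called genes, 1668 of 2751, 1354 of 2391 and 1444 of 2558 were higher there, in the same order. Past the adjusted p alone, Sox6 in both comparisons with MRL/MpJ and Runx2 in STR/ort minus C57BL/6 went the other way. Runx1, Cbfb and the C57BL/6 minus MRL/MpJ value of Runx2 were higher in the more susceptible strain. The 3 comparisons share groups, so their values stand side by side and are not independent.

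At 0-day, Sox9 was 11.4, 12.4, 7.75 and 13.1 CPM in MRL/MpJ joints, 19.4, 32.2, 26.8 and 32.6 CPM in C57BL/6 joints and 38.0, 33.6, 43.4 and 31.3 CPM in STR/ort joints. The MRL/MpJ joints lay below all the others. The log2 fold difference was 1.35 ± 0.17 for C57BL/6 minus MRL/MpJ (adjusted p = 6.43e-06) and 1.71 ± 0.17 for STR/ort minus MRL/MpJ (adjusted p = 3.19e-07). With 2 RUVg factors the first was 0.06 with an adjusted p of 0.971, and the STR/ort minus C57BL/6 difference went from 0.36 (adjusted p = 0.0604) to 1.27 (adjusted p = 0.00256). Sox5 differed by 0.86 ± 0.17 and 0.71 ± 0.17 and Sox4 by 0.66 ± 0.13 and 0.85 ± 0.13 in these comparisons with MRL/MpJ. With 2 RUVg factors both Sox5 calls (0.44, adjusted p = 0.757, and 0.55, adjusted p = 0.0776) and the C57BL/6 call of Sox4 (0.51, adjusted p = 0.55) were lost. The C57BL/6 call of Sox4 was also lost without MRL/MpJ replicate 1, at 0.56.

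Sox11 at 0-day was 1.60, 1.16, 2.41 and 1.38 CPM in MRL/MpJ, 2.26, 1.77, 2.10 and 1.77 CPM in C57BL/6 and 3.30, 2.72, 5.01 and 6.01 CPM in STR/ort joints. All STR/ort joints were above all others. The log2 fold difference was 1.40 ± 0.28 from MRL/MpJ (adjusted p = 0.000781) and 1.06 ± 0.25 from C57BL/6 (adjusted p = 0.00314), and the second was lost with 1 and 2 RUVg factors, at 0.49 (adjusted p = 0.292) and 0.11 (0.972). Sox6 went the other way. Its mean was 129 ± 3.6 CPM in MRL/MpJ, 86.8 ± 10 CPM in C57BL/6 and 88.8 ± 3.7 CPM in STR/ort joints (SD, n = 4 each), so MRL/MpJ joints were highest. The log2 fold difference was -0.53 for C57BL/6 minus MRL/MpJ (adjusted p = 3.59e-05) and -0.53 for STR/ort minus MRL/MpJ (adjusted p = 3.45e-05), past the adjusted p but not the fold limit. The C57BL/6 minus MRL/MpJ value passed that limit without C57BL/6 replicate 3, at -0.60. Runx2 was higher in C57BL/6 than in MRL/MpJ joints by 0.51 ± 0.09 (adjusted p = 0.000284), under the fold limit, and with housekeeping-gene scaling it was called at 0.59.

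Marker sums at 0-day differed between the same strains. The 6 fibroblast markers summed to a median of 2053 CPM in MRL/MpJ, 5038 CPM in C57BL/6 and 5444 CPM in STR/ort joints, and the MRL/MpJ joints lay below all the others. The 6 chondrocyte markers summed to 2618, 5606 and 3423 CPM in the same order, with ranges that overlapped between all strains. Of the fibroblast markers 5 of 6 were called higher than in MRL/MpJ joints in each of the other strains, and of the chondrocyte markers 6 of 6 in C57BL/6 and 0 of 6 in STR/ort joints, against 15.9% of all genes for C57BL/6 and 14.8% for STR/ort minus MRL/MpJ. Their part in the 0-day values of the members was not tested.

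**Figure D4:**
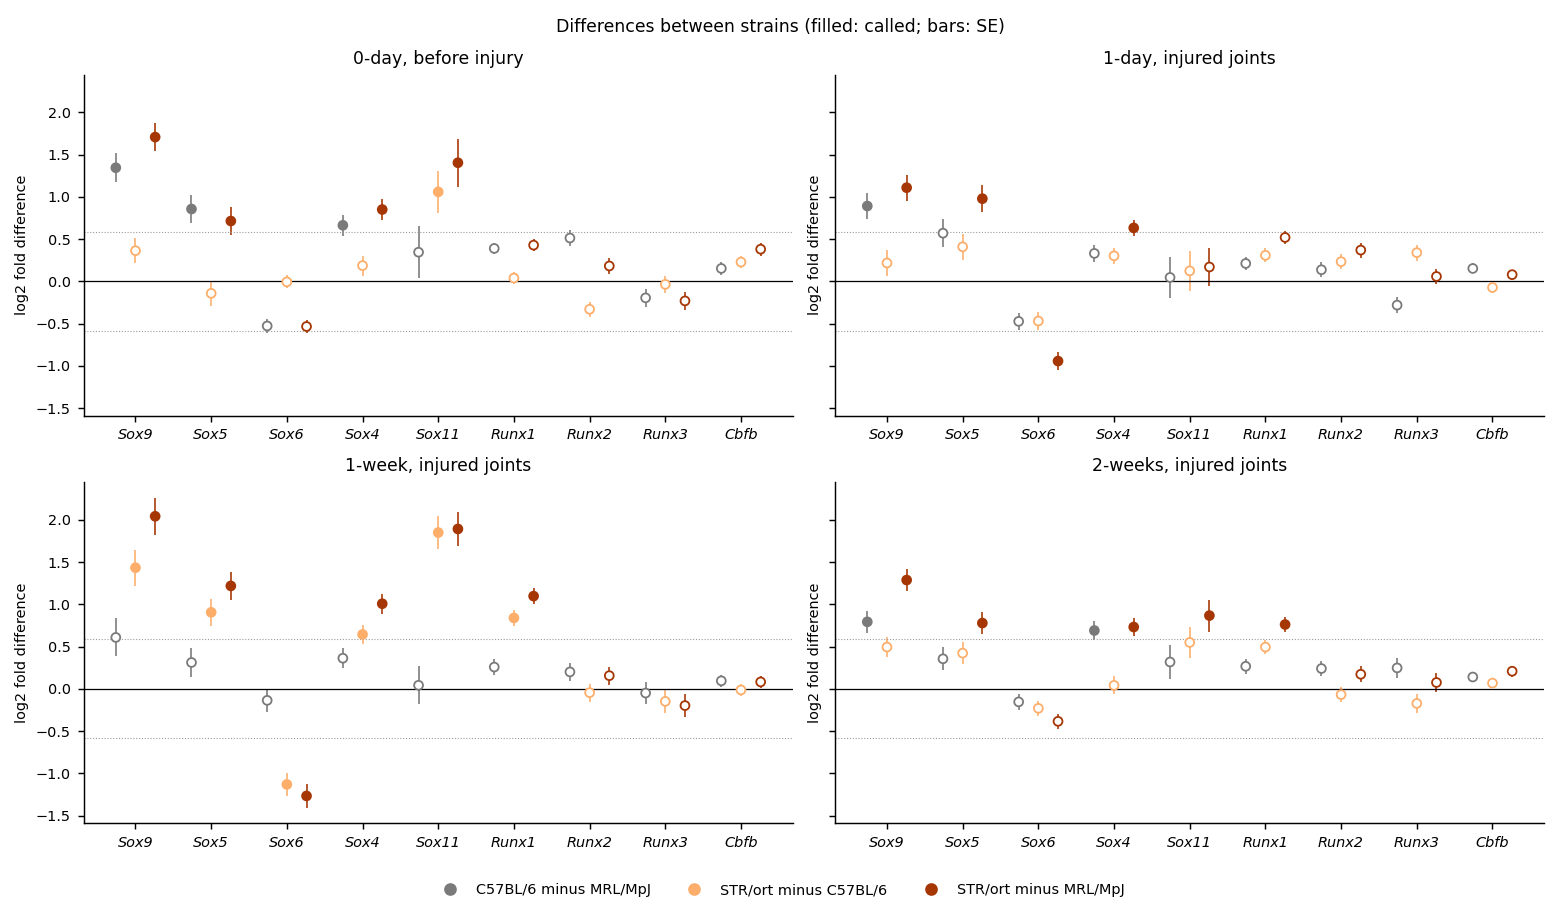
Log2 fold difference between strains (y axis) for the 9 members (x axis) before injury and in injured joints at the 3 later times, with 1 colour for each pair of strains. Bars are standard errors, filled circles mark called members and dotted lines mark 1.5-fold. In 1-week injured joints Sox9, Sox5, Sox4, Sox11 and Runx1 are called higher, and Sox6 lower, when STR/ort is set against either strain.

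In injured joints, more members were called between STR/ort and either other strain at 1-week than at the other times, and the C57BL/6 minus MRL/MpJ counts did not follow that order. At 1-day 1 of 9 members was called between C57BL/6 and MRL/MpJ joints (all genes 16.3%), 0 of 9 between STR/ort and C57BL/6 joints (12.4%, with 6 members at an unadjusted p under 0.05 and 0 by DESeq2) and 4 of 9 between STR/ort and MRL/MpJ joints (20.3%). At 1-week the counts were 0 of 9 (9.47%, with 3 at an unadjusted p under 0.05 and 1 by DESeq2), 6 of 9 (25.1%) and 6 of 9 (29.5%). At 2-weeks they were 2 of 9 (11.5%), 0 of 9 (10.4%, with 5 at an unadjusted p under 0.05 and 0 by DESeq2) and 5 of 9 (18.9%). The median difference of the 9 members between STR/ort and MRL/MpJ injured joints was 0.37 at 1-day, 1.01 at 1-week and 0.73 at 2-weeks, and that of all genes was 0.01, -0.01 and 0.02.

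At 1-week, injured STR/ort joints exceeded injured MRL/MpJ joints by 2.04 ± 0.22 for Sox9 (adjusted p = 6.69e-09), 1.219 ± 0.17 for Sox5 (3.63e-07) and 1.01 ± 0.12 for Sox4 (2.27e-08). The differences for Sox11 and Runx1 were 1.89 ± 0.20 (3.2e-09) and 1.10 ± 0.10 (1.1e-10). Sox6 was lower, at -1.27 ± 0.14 (9.63e-09). Against C57BL/6 injured joints the same 6 members differed, by 1.43 for Sox9, 0.91 for Sox5, 0.65 for Sox4, 1.85 for Sox11, 0.84 for Runx1 and -1.13 for Sox6. Per library, Sox4 in injured joints was 75.6, 63.7, 79.4, 59.2 and 66.8 CPM in STR/ort mice, 41.5, 35.9, 45.4, 42.5 and 53.0 CPM in C57BL/6 mice and 35.0, 35.4, 30.3, 30.8 and 38.3 CPM in MRL/MpJ mice. The STR/ort joints lay above all others.

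Several of these 1-week calls depended on the scaling. With 2 RUVg factors, the Sox9 differences were 1.06 from MRL/MpJ (adjusted p = 0.203) and 0.65 from C57BL/6 (0.252), the latter also not called with 1 factor (0.76, adjusted p = 0.0994), and the Sox6 difference from MRL/MpJ was -0.68 (0.142). The Sox4 difference from C57BL/6 joints was lost with 1 and 2 RUVg factors (0.35 and 0.45), with housekeeping-gene scaling (0.48) and without STR/ort injured replicate 3 (0.58). Under RUVg, Runx3 was called lower in STR/ort injured joints than in both other strains, by -0.85 from C57BL/6 and -1.01 from MRL/MpJ with 1 factor, where the main values were -0.15 (adjusted p = 0.38) and -0.20 (0.224). Runx2 was called lower than in C57BL/6 joints by -0.63 with 1 factor, from -0.04 (0.753), and its difference from MRL/MpJ joints turned from 0.16 (0.223) to -0.63 (0.0159) with 2 factors. The Sox9 difference of C57BL/6 minus MRL/MpJ at 1-week was 0.61, adjusted p = 0.055, and 0.61 (0.0395) by DESeq2, 0.62 (0.0407) with only the compared groups and 0.64 (0.0485) with housekeeping-gene scaling. It was also called without C57BL/6 injured replicates 2 (0.71) or 4 (0.69) and MRL/MpJ injured replicate 5 (0.70), and without C57BL/6 contralateral replicate 5, STR/ort injured replicate 3 or STR/ort contralateral replicate 4 (0.61 in each).

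At 1-day, Sox9 was higher in C57BL/6 than in MRL/MpJ injured joints by 0.89 ± 0.16 (adjusted p = 3.51e-05). STR/ort injured joints exceeded MRL/MpJ ones by 1.11 for Sox9, 0.98 for Sox5 and 0.63 for Sox4, and were lower by -0.94 for Sox6. The Sox4 call was lost with 1 and 2 RUVg factors (0.42 in both), with housekeeping-gene scaling (0.45) and without STR/ort injured replicate 2 (0.56). The Sox5 difference of C57BL/6 minus MRL/MpJ was 0.57 ± 0.17 (adjusted p = 0.00705) and passed the fold limit without C57BL/6 injured replicates 3 (0.69) or 5 (0.60) and without MRL/MpJ injured replicates 2 (0.72) or 4 (0.65). It also reached 0.59 without MRL/MpJ contralateral replicates 4 or 5 or STR/ort contralateral replicate 4. Sox6 between STR/ort and C57BL/6 joints was -0.47 (adjusted p = 0.000759), and -0.59 and called with housekeeping-gene scaling.

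At 2-weeks, injured STR/ort joints exceeded MRL/MpJ ones by 1.29 ± 0.13 for Sox9 (adjusted p = 8.72e-10), 0.78 ± 0.13 for Sox5, 0.73 ± 0.11 for Sox4, 0.87 ± 0.19 for Sox11 and 0.76 ± 0.09 for Runx1. The Sox11 difference was 0.58 (adjusted p = 0.113) with 2 RUVg factors. C57BL/6 joints exceeded MRL/MpJ ones by 0.79 ± 0.13 for Sox9 and 0.69 ± 0.11 for Sox4. Between STR/ort and C57BL/6 joints, Sox9 (0.49), Sox5 (0.42), Sox11 (0.55) and Runx1 (0.49) passed the adjusted p but not the fold limit. Sox11 passed both without C57BL/6 injured replicate 3 (0.72) or STR/ort injured replicate 2 (0.59) and with housekeeping-gene scaling (0.62). Sox9 passed both without C57BL/6 injured replicate 4 (0.59) and with 2 RUVg factors (0.62), as did Runx1 with 2 RUVg factors (0.59).

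In the contralateral joints the members called between strains were Sox9, Sox5, Sox6, Sox4 and Sox11 at 1-day and at 1-week, in pairs of strains that differed between the times, and Sox9 and Sox4 at 2-weeks. At 1-day 2 of 9 were called between C57BL/6 and MRL/MpJ joints (all genes 14.8%), 3 of 9 between STR/ort and C57BL/6 joints (10.5%) and 5 of 9 between STR/ort and MRL/MpJ joints (22.6%). At 1-week these counts were 0 of 9 (8.53%, with 0 at an unadjusted p under 0.05 and 0 by DESeq2), 5 of 9 (22.2%) and 5 of 9 (24.4%). At 2-weeks they were 1 of 9 (9.83%), 0 of 9 (9.78%, with 1 at an unadjusted p under 0.05 and 0 by DESeq2) and 1 of 9 (13.8%).

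At 1-week, Sox9 in contralateral joints was 12.6, 13.6, 10.5 and 13.4 CPM in MRL/MpJ mice, which overlapped the C57BL/6 values given above, while the lowest STR/ort joint, at 30.3 CPM, was above all of both. STR/ort joints exceeded MRL/MpJ ones by 1.69 ± 0.26 for Sox9 (adjusted p = 4.54e-06), 2.00 ± 0.20 for Sox5 (2.84e-09), 0.85 ± 0.13 for Sox4 (6.1e-06) and 0.81 ± 0.26 for Sox11 (0.0113). Sox6 was lower by -0.96 ± 0.15 (8.97e-06). Against C57BL/6 joints the differences were 1.68 for Sox9, 1.93 for Sox5, 0.59 for Sox4, 0.69 for Sox11 and -0.88 for Sox6. With 2 RUVg factors Sox9 was 0.70 from MRL/MpJ (adjusted p = 0.475) and 0.93 from C57BL/6 (0.101), Sox6 was -0.32 (0.565) and -0.34 (0.3), Sox4 was 0.66 (0.146) and 0.34 (0.251) and Sox11 was 1.61 (0.0652) and 1.07 (0.0615), so only the Sox5 calls were kept with both strains. The same calls were lost with 1 factor. Runx3, at 0.01 from MRL/MpJ (adjusted p = 0.964), became -0.85 and -0.95 with 1 and 2 RUVg factors and was then called.

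Single libraries and other scalings also decided some of these calls. With housekeeping-gene scaling the Sox4 and Sox11 differences from C57BL/6 joints were 0.45 and 0.55 (adjusted p = 0.0631 for Sox11) and were not called, and with RLE factors the Sox4 one, at 0.58, was not. The Sox11 difference from C57BL/6 joints was lost without C57BL/6 replicate 4 (0.60), STR/ort replicate 2 (0.50) or STR/ort replicate 4 (0.61), and that from MRL/MpJ joints without MRL/MpJ replicate 3 (0.66) or STR/ort replicate 2 (0.62). The Sox4 difference from C57BL/6 joints was lost without C57BL/6 replicates 2 (0.52) or 3 (0.57) and STR/ort replicates 1 (0.53) or 2 (0.56). Runx1 was under the fold limit at 0.54 from C57BL/6 and 0.58 from MRL/MpJ joints. It passed both limits without STR/ort replicate 2 (0.61 and 0.64), and from MRL/MpJ also without MRL/MpJ replicate 2 (0.60), without C57BL/6 injured replicates 1, 2, 3 or 5 (0.59 in each) and with only the compared groups in the fit (0.59).

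At 1-day, STR/ort contralateral joints exceeded MRL/MpJ ones by 1.70 ± 0.16 for Sox9 (adjusted p = 3.87e-10), 1.47 ± 0.16 for Sox5, 0.85 ± 0.10 for Sox4 and 0.85 ± 0.25 for Sox11, and were lower by -0.87 ± 0.10 for Sox6. The Sox11 difference was 0.79 and 0.71 (adjusted p = 0.177 and 0.225) with 1 and 2 RUVg factors and was not called. C57BL/6 joints exceeded MRL/MpJ ones by 1.08 for Sox9 and 0.97 for Sox5. Against C57BL/6, STR/ort joints differed by 0.62 for Sox9, 0.71 for Sox11 and -0.67 for Sox6. With 1 and 2 RUVg factors these were 0.54 and 0.56, 0.69 and 0.71, and -0.57 and -0.56, and none was called. With housekeeping-gene scaling the Sox9 and Sox11 calls were lost, at 0.51 and 0.61. The Sox9 call was also lost without C57BL/6 replicate 4 (0.55) and STR/ort replicates 2 (0.55) or 5 (0.58), and the Sox11 call without C57BL/6 replicate 4 (0.54) and STR/ort replicates 1 (0.63) or 2 (0.59). At 2-weeks the calls were Sox4, higher by 0.66 ± 0.11 in C57BL/6 than in MRL/MpJ joints, and Sox9, higher by 0.73 ± 0.13 in STR/ort than in MRL/MpJ joints. The Sox4 value was 0.53 and 0.54 with 1 and 2 RUVg factors, under the fold limit. Sox4 between STR/ort and MRL/MpJ joints was 0.57 (adjusted p = 0.000166) and passed the fold limit with filterByExpr (0.59) and housekeeping-gene scaling (0.63) and without MRL/MpJ replicate 1 (0.69), STR/ort replicates 1 (0.65) or 3 (0.61) or MRL/MpJ injured replicate 4 (0.60).

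Marker sums are given beside some of these values. In 1-day contralateral joints the fibroblast sum was 5694 to 10281 CPM in STR/ort and 2214 to 2525 CPM in MRL/MpJ mice. The chondrocyte sum there was 3058 to 6238 CPM and 1189 to 2508 CPM, so neither sum overlapped between these strains. The summed level of the 6 fibroblast markers (Pdgfra, Prrx1, Col3a1, Thy1, Dcn and Lum) at 1-week had a median of 2083 CPM in MRL/MpJ, 2607 CPM in C57BL/6 and 11382 CPM in STR/ort contralateral joints, and of 7424, 8666 and 24242 CPM in injured joints. Of these markers 6 of 6 were called higher with injury at 1-week in C57BL/6 (all genes 5.82%) and MRL/MpJ joints (3.13%) and 4 of 6 in STR/ort joints (9.21%). The 6 chondrocyte markers summed to a median of 2058, 2080 and 5198 CPM in the 1-week contralateral joints and of 1533, 2149 and 4624 CPM in the injured joints, and the ranges of contralateral and injured joints overlapped in each strain. Of them 1 of 6 was called higher with injury in C57BL/6 joints, 0 in MRL/MpJ and 1 in STR/ort joints. The 5 osteoblast markers summed to 3578 CPM in STR/ort contralateral and 2448 CPM in injured joints at 1-week, with 3 of 5 called lower (all genes 9.21%). At 2-weeks in STR/ort joints, where Sox9, Sox5, Sox11 and Runx1 were called, the chondrocyte sum had a median of 2761 CPM (2445 to 3465) in contralateral and 4845 CPM (3870 to 5662) in injured joints. The fibroblast sum there was 3943 CPM (2907 to 4750.3) and 12431 CPM (9018 to 13195), so neither sum overlapped between the sides. Of these markers 2 of 6 and 4 of 6 were called higher, against 4.66% of all genes. Their part in the values of the SOX and RUNX genes was not tested.

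The fast muscle sum at 1-week was lowest in STR/ort joints. Its median was 57764 CPM in MRL/MpJ, 56035 CPM in C57BL/6 and 26126 CPM in STR/ort contralateral joints, and 43485, 36760.5 and 16503 CPM in injured joints, in the same order as Sox6. At 0-day it was 68537 CPM in MRL/MpJ, 37463 CPM in C57BL/6 and 65382 CPM in STR/ort joints. There the ranges of the muscle sum in STR/ort and MRL/MpJ joints overlapped. Sox6 at 0-day was 85.6 to 93.2 CPM in STR/ort and 125 to 133 CPM in MRL/MpJ joints. The erythroid sum at 0-day was 5127 to 6212 CPM in MRL/MpJ joints. It was 3215 to 3829 CPM in C57BL/6 and 2343 to 2540 CPM in STR/ort joints. The T cell sum at 0-day was 74.7 CPM in MRL/MpJ, 45.2 CPM in C57BL/6 and 30.6 CPM in STR/ort joints, beside Runx3 means of 27.3, 23.2 and 23.3 CPM. The part of muscle, erythroid cells and T cells in the Sox6 and Runx3 values was not tested.

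**Figure D5:**
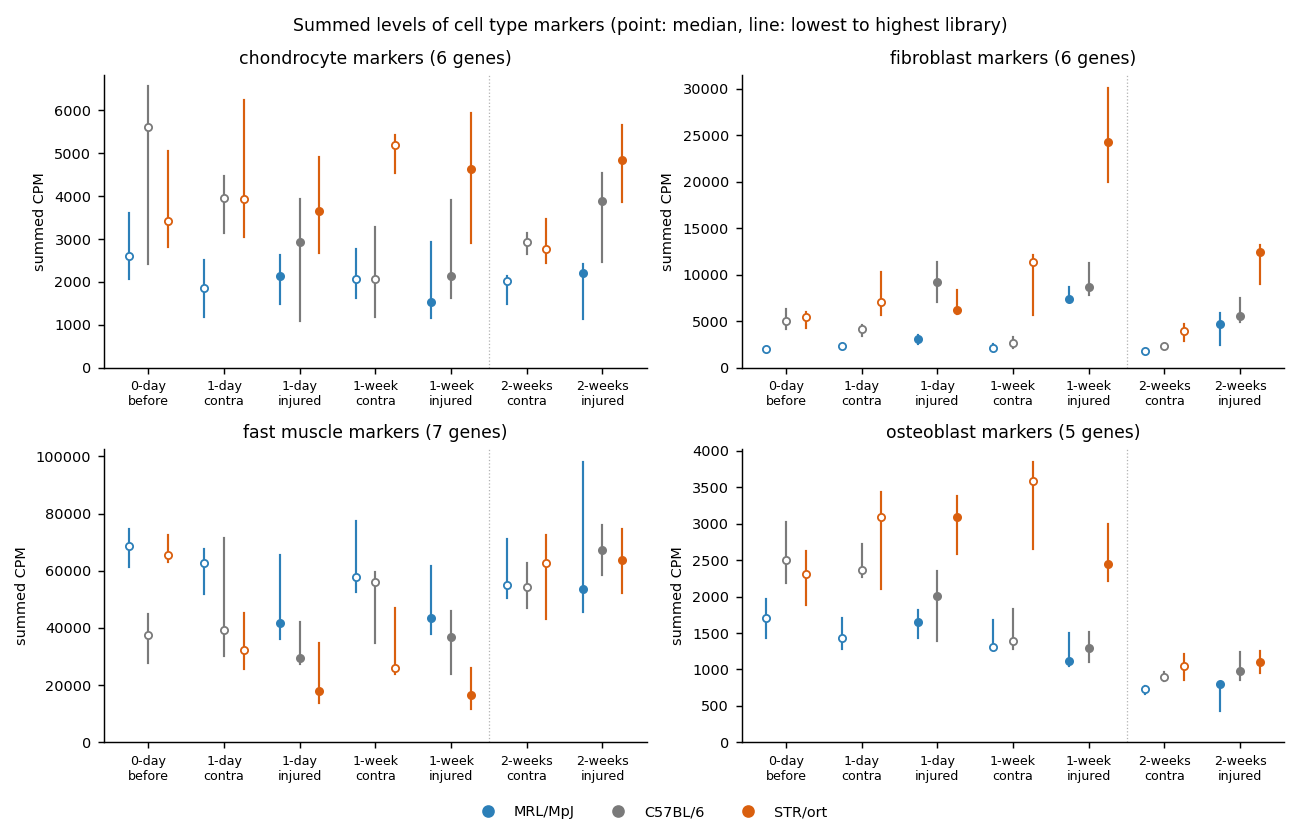
Summed CPM (linear axis from 0) of the chondrocyte, fibroblast, fast muscle and osteoblast markers by time and joint, where contra marks the contralateral joint. Points are group medians (filled for injured joints), lines run from the lowest to the highest library, colours are strains and the dotted line separates the 2-weeks batch. The fibroblast sum is highest (median 24242) and the muscle sum lowest (16503) in STR/ort 1-week injured joints.

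Of the 16 listed genes that SOX proteins are known to drive in cartilage, 15 were in the table. All of the chondrocyte markers (Col2a1, Acan, Matn3, Hapln1, Col9a1 and Col11a2) are in this list. The chondrocyte sum and this list are therefore not separate readouts. With injury at 1-week, 2 of the 15 were called higher and 1 lower in C57BL/6 joints (all genes 5.82%), 1 and 1 in MRL/MpJ joints (3.13%) and 1 and 1 in STR/ort joints (9.21%), with list medians of -0.08, -0.22 and -0.28. Acan, the core protein of aggrecan, rose by 1.28 ± 0.18 in C57BL/6 and 0.98 ± 0.19 in STR/ort joints. Comp, a matrix protein of cartilage and tendon, rose by 0.98 ± 0.17 in C57BL/6 and 1.01 ± 0.18 in MRL/MpJ joints. Its interaction was called at 1-week, at -1.05 for STR/ort minus C57BL/6 (adjusted p = 0.0445) and at -1.08 for STR/ort minus MRL/MpJ (0.0291), of which Sox5 was called in the first alone. Cytl1, a secreted protein of chondrocytes, fell by 1.62 in C57BL/6, by 1.07 in MRL/MpJ and by 1.77 in STR/ort joints. At 2-weeks the counts were 2 higher and 1 lower in C57BL/6 (all genes 2.95%), 1 and 1 in MRL/MpJ (1.16%) and 3 and 1 in STR/ort joints (4.66%), with list medians of 0.14, -0.04 and 0.42. At 1-day 3 were called lower in C57BL/6 (5.60%), 0 in MRL/MpJ (2.02%) and 2 lower in STR/ort joints (4.31%).

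Between strains in injured joints at 1-week, 13 of 15 were called as higher in STR/ort joints than in those of MRL/MpJ mice (median 1.36, all genes 29.5% called) and 12 of 15 higher than in C57BL/6 joints (median 0.85, all genes 25.1%), with 0 lower. At 0-day 13 of 15 were higher in C57BL/6 than in MRL/MpJ joints (median 1.18, all genes 15.9%), among them Cytl1 (1.68) and Ucma (1.78). Between STR/ort and C57BL/6 joints at 0-day, 8 of 15 were lower in STR/ort (median -0.64, all genes 13.8%), while the Sox9 difference was 0.36 ± 0.15 in the other direction. Between STR/ort and MRL/MpJ joints 2 of 15 were called higher (median 0.48, all genes 14.8%), beside a Sox9 difference of 1.71.

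Of 13 listed bone and hypertrophic targets of RUNX2, 5 fell and 2 rose with injury in STR/ort joints at 1-week (list median -0.52), 7 of 13 called against 9.21% of all genes. Among those that fell were the osteocalcin genes Bglap, at -1.31 ± 0.20, and Bglap2, at -1.224 ± 0.28, and Sp7, the osteoblast factor downstream of Runx2, at -0.76 ± 0.20. The Runx2 change there was -0.23 ± 0.11, adjusted p = 0.143. Sp7, Bglap, Ibsp and Dmp1 are also osteoblast markers, so this list and the osteoblast sum share genes. In C57BL/6 joints at 1-week 1 rose (Col1a1, 0.63) and 1 fell (Bglap, by 0.60), against 5.82% of all genes, and in MRL/MpJ joints 0 were called (3.13%). At 2-weeks 1 of 13 rose in STR/ort joints (Col1a1, 0.59), against 4.66% of all genes, and 0 were called in C57BL/6 (2.95%) and MRL/MpJ joints (1.16%). At 1-day 1 of 13 was called, Col10a1 in C57BL/6 joints, which fell by 0.80, against 5.60% of all genes, and 0 in MRL/MpJ (2.02%) and STR/ort joints (4.31%). At 0-day 8 of 13 were higher in C57BL/6 than in MRL/MpJ joints (median 0.63, all genes 15.9%), and 5 were lower and 1 higher in STR/ort than in C57BL/6 joints (median -0.39, all genes 13.8%), where Runx2 differed by -0.33 ± 0.09 (adjusted p = 0.00856).

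Of the 14 other SOX genes listed, 8 were in the table. With injury only Sox7, an endothelial SOX gene, was called, in STR/ort joints at 1-week at 0.77 ± 0.20 (adjusted p = 0.00667), 1 of 8 against 9.21% of all genes. At 0-day Sox13, a SoxD gene like Sox5 and Sox6, was lower in C57BL/6 than in MRL/MpJ joints by -1.496 ± 0.14 and higher in STR/ort than in C57BL/6 joints by 1.01 ± 0.14. Of 29 co-regulators of SOX and RUNX proteins, 3 rose with injury at 1-week in each strain, and 2 fell in STR/ort joints. These are 3 of 29 called in C57BL/6 joints against 5.82% of all genes, 3 of 29 in MRL/MpJ joints against 3.13% and 5 of 29 in STR/ort joints against 9.21%. Zfp521, a zinc-finger partner that restrains Runx2, rose by 0.99 ± 0.13 in C57BL/6, 0.74 ± 0.14 in MRL/MpJ and 1.02 ± 0.14 in STR/ort joints. Twist1, which binds and inhibits Runx2, rose by 0.59 ± 0.12 in C57BL/6 and 0.83 ± 0.14 in MRL/MpJ joints, and Wwtr1 (TAZ), a Runx2 coactivator, by 0.59 ± 0.11 in MRL/MpJ and 0.80 ± 0.11 in STR/ort joints. At 2-weeks 2 of 29 rose in C57BL/6 (all genes 2.95%), 0 in MRL/MpJ (1.16%) and 3 in STR/ort joints (4.66%), and at 1-day 0 were called in C57BL/6 (5.60%), MRL/MpJ (2.02%) or STR/ort joints (4.31%).

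The genes whose pattern was most like that of each member were found over the 15 group means of the first batch, among 11865 genes with a mean of at least 5 CPM. The groups share strains, times and libraries, so the correlations are descriptions. For Sox9 they were 2700081O15Rik (Pearson r = 0.975), Hoxc8 (0.972) and Fmod (0.968), and over the 6 groups of the 2-weeks batch r was 0.976, 0.764 and 0.974. For Sox5 they were Comp (0.986), Colec12 (0.976) and Dcn (0.975), with 0.962, 0.890 and 0.928 in the 2-weeks batch. For Sox6 they were Rnf123 (0.991), Aldh1a1 (0.987) and Pcnt (0.984), with 0.873, 0.962 and 0.816 there, and for Sox4 2700081O15Rik (0.964), Adamts7 (0.961) and Plcb1 (0.951), with 0.926, 0.856 and 0.793. Sox11 was closest to Mmrn2 (0.972), Dynlt3 (0.938) and Gjc1 (0.935), with 0.736, 0.908 and 0.940 in the 2-weeks batch, and Runx1 to Itga5 (0.980), Ecscr (0.978) and Itgb1 (0.976), with 0.989, 0.966 and 0.959. Runx2 was closest to Unc5c (0.950), Chn1 (0.934) and Lbh (0.919), with 0.841, 0.871 and 0.889 in the 2-weeks batch. Cbfb was closest to Tm2d1 (0.872), Ccdc117 (0.866) and Ctxn3 (0.855), with 0.417, 0.829 and 0.769 there. The nearest genes of Runx3, Mapk13 (0.842), Lyl1 (0.840) and Xpc (0.838), had r of -0.22, 0.08 and 0.05 in the 2-weeks batch, so that likeness was not seen there.

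Among the members themselves over the same 15 group means, Sox9 followed Sox4 (r = 0.949) and Sox5 (0.945) and ran against Sox6 (-0.91), its partner in cartilage. Runx1 ran with Sox11 (0.813) and Sox9 (0.787) and against Sox6 (-0.87). Runx2, Runx3 and Cbfb had r between -0.53 and 0.44 with every other member. In the 6 groups of the 2-weeks batch, Runx2 had r of 0.771 with Runx3, 0.69995 with Sox4 and 0.624 with Cbfb, and Cbfb 0.535 with Sox9. There the Sox9 values were 0.896 with Sox4, 0.931 with Sox5 and -0.95 with Sox6.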

How the data were processed

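Per the labels and the study's methods, the authors aligned reads to mm10 with TopHat2 2.0.11, counted RefSeq genes with featureCounts, kept genes with at least 2 counts in 5 libraries and deposited raw counts of 100 libraries in 1 table. The table had 17313 rows; 3 repeated rows were dropped, 24 names are date-like, and 0 of 190 pairs within groups were identical.

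Counts were scaled by the trimmed mean of M values (TMM) and tested in R 4.3.3 with edgeR 4.0.16 (glmQLFit, glmQLFTest), 1 fit for each time with all its groups. CPM are TMM-normalised. On simulated counts for 17310 genes, 91% of changes of 0.8 and 96% of changes of 1 (log2) were called for STR/ort minus MRL/MpJ at 0-day, and 89% and 90% for injury in MRL/MpJ joints at 1-week, with 6 false calls in each. The changes were placed only in genes above a minimum expected count, and the groups otherwise had equal means. These rates need not hold for members with few reads, such as Sox11. Members and lists were chosen with earlier results of these data known. All members are named; from a list at most 3 called genes with the smallest adjusted p per comparison, and as like genes the 3 highest correlations.

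The 2-weeks labels give the same animal to 15 pairs of joints (correlation of paired deviations -0.46 to 0.62). At the other times the labels name no animal, so same-numbered joints may not be from 1 mouse. At 1-week every same-numbered pair exceeded 0.1 in MRL/MpJ (0.12 to 0.29) and STR/ort mice (0.19 to 0.47). In C57BL/6 mice these pairs ran from -0.14 to 0.62. At 1-day they ran from -0.30 to 0.36 in MRL/MpJ, -0.31 to 0.54 in STR/ort and 0.07 to 0.20 in C57BL/6 mice. Alternatives were RLE factors, housekeeping-gene scaling (25 genes), RUVg with 1 or 2 factors (the authors used RUVSeq, with a number of factors not given in the sources used here), filterByExpr, no filter, compared groups only, a replicate block, DESeq2 1.42.0 and leaving out each library. Intervals cover the spread between libraries.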

Additional observations from a re-analysis of the deposited data

Results flagged for a closer look

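In 8 of 189 combinations of a member and a group of 4 or 5 libraries, the highest or lowest library was farther from its nearest neighbour than Dixon's 95% limit allows. Chance alone flags about 1 in 20 independent sets. The members share the same libraries, so these combinations are not independent. Sox9 was lowest in STR/ort 1-day injured replicate 3, at 22.9 CPM beside 30.6 to 33.6 CPM in the others. Sox5 was highest in STR/ort 2-weeks contralateral replicate 4, at 14.1 CPM beside 8.48 to 8.95 CPM. Sox6 was highest in MRL/MpJ 1-week injured replicate 5, at 121 CPM, and in C57BL/6 2-weeks contralateral replicate 2, at 187 CPM. Runx1 was lowest in MRL/MpJ 0-day replicate 1, at 49.7 CPM. Runx2 was lowest in MRL/MpJ 2-weeks injured replicate 4, at 43.8 CPM, with the next library at 67.0 CPM. Runx3 was highest in MRL/MpJ 0-day replicate 2, at 33.0 CPM, and lowest in STR/ort 1-day contralateral replicate 4, at 20.7 CPM.

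The injury change of Sox5 at 1-week differed between STR/ort and C57BL/6 mice in the test of the interaction, with a log2 difference of -1.02. It is the only member for which that test was passed in the main fit, while DESeq2 and some other alternatives also called Sox11. The Sox5 call was lost without 15 of the 19 libraries it compares, each left out in turn.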

How the results depend on the processing

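Of 351 tests of a member in a comparison, 66 were called, 58 higher and 8 lower, and 37 of the 66 kept their call in every alternative tried. No call changed its direction. With 1 and 2 RUVg factors the calls in contralateral joints were 6 and 6 at 1-day (10 in the main fit), 3 and 3 at 1-week (10) and 1 and 1 at 2-weeks (2), and with 2 factors they were 4 at 0-day (8). The interaction calls at 1-week were 0 with RLE factors, 0 with only the compared groups, 2 with 2 RUVg factors and 2 with DESeq2 (1 in the main fit); the cause was not tested. Housekeeping-gene scaling shifted the median of all genes by up to -0.18 in 7 comparisons of STR/ort with another strain. Of the 66 single calls, 64 were kept with RLE factors, 60 with housekeeping-gene scaling, 48 and 40 with 1 and 2 RUVg factors, 65 with filterByExpr, 65 with only the compared groups and 66 with DESeq2. The fit with no filter could lose no call through filtering, since 0 of 17310 genes failed the filter.

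When every library was dropped singly, there were 7 to 9 calls at 0-day, 0 to 1 for injury at 1-day, 6 to 8 at 1-week and 3 to 5 at 2-weeks, and 0 to 2 interaction calls at 1-week. In contralateral joints it gave 8 to 10, 9 to 11 and 2 to 3 calls at the 3 times in order, and in injured joints 4 to 6, 12 to 13 and 7 to 8. The replicate block pairs same-numbered joints, which the labels give to the same animal only at 2-weeks. It kept all 12 of 12 called injury and interaction values, with 7 injury calls at 1-week, 4 at 2-weeks and 0 at 1-day, and it changed no other call. The reads of Sox11, 8 to 94 per library, limit what its values can show.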
